A study of Mus musculus with 9 samples.

Results

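The expression profile described here is that of LSK cells from the 5 mice whose libraries carry Jak2VF and EV in their titles, 5 of the 9 libraries in the series. The mice were C57BL/6J animals of genotype Jak2V617F, had been treated with tamoxifen, and are numbered 1 to 5 as in their titles. EV is taken here as an empty vector, which the labels do not spell out, and the title of mouse 2 has the allele spelled Ja2kVF. LSK cells, that is lineage-negative, Sca1-positive and Kit-positive bone marrow cells, had been sorted at a terminal time point as positive for both GFP and mCherry, and the sources used here do not say what each fluorophore marks, what age the mice had or which Cre or promoter was used. The other 4 libraries, from mice whose genotype adds sgZrsr2 to the same Jak2 allele, enter only where the variation between mice is set beside theirs. All 9 mice carried Jak2V617F and all had received tamoxifen, so neither a wild-type nor an untreated level can be read from these data.

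The LSK fraction of mouse bone marrow holds the haematopoietic stem cells and the multipotent progenitors that give rise to all blood lineages. JAK2 is the kinase attached to the receptors for erythropoietin and several other blood cell cytokines, and passes their signal to STAT transcription factors. The V617F change removes its self-inhibition and is the most common driver of myeloproliferative neoplasms, diseases with an excess of red cells, platelets or granulocytes.

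Library totals were 34124805, 44613709, 35909704, 45585531 and 32961362 expected counts in mice 1 to 5. Levels are given as CPM, counts scaled to a common library size, after applying TMM factors, which correct for differences in library composition, and differences between mice are given on the log2 scale. A gene with at most 3 counts in every library is called at the floor, which corresponds to 0.0658 to 0.0910 CPM before TMM factors are applied. Mouse 3 differed most from mice 1, 2 and 5. Its median absolute log2 difference from another mouse was between 0.29 and 0.40 over 12014 genes. Mice 1 and 2 differed from each other by 0.11, the smallest of these differences. Mouse 4 differed from mice 1, 2 and 5 by 0.29, 0.25 and 0.28. By this measure mouse 4 was as far from mouse 1 as from mouse 3. The 12014 genes averaged 2 CPM or more and had enough counts in all 5 libraries to be tested. Mouse 3 lay more than 1 log2 unit above the mean of the other 4 mice for 354 of these genes and below it for 835, against 55 to 196 and 72 to 243 genes in the other mice. Scaling by library totals in place of TMM moved the median gene of mouse 3 by -0.16 and that of each other mouse by at most 0.07. Each library is 1 mouse, so the spread between libraries holds both biological and technical variation. Counts given below of list genes highest or lowest in a mouse have no share over all genes beside them. They describe the list and do not set it apart from other genes.

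**Figure D1:**
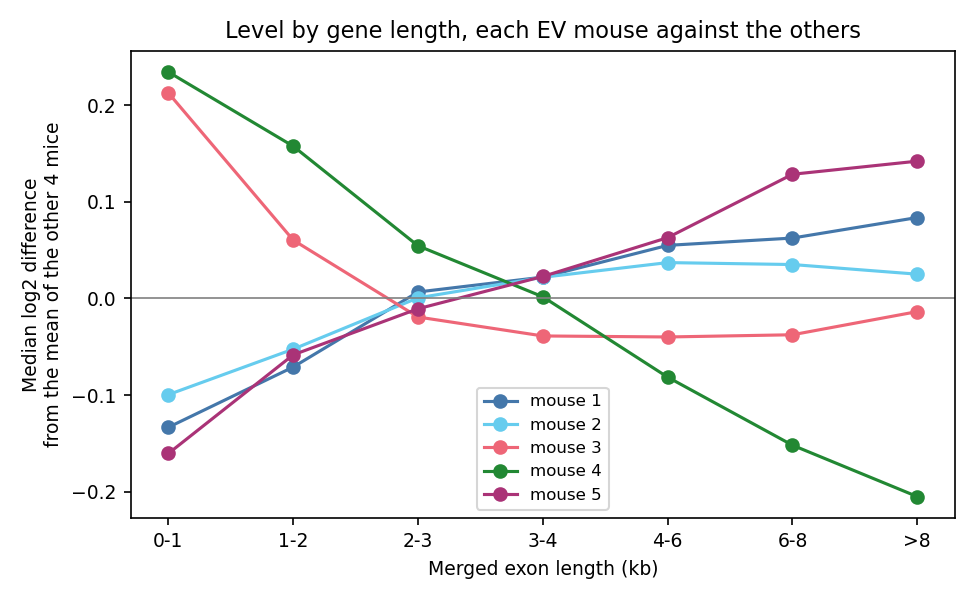
Median log2 difference of each Jak2V617F EV mouse from the mean of the other 4 mice (vertical axis) for genes grouped by merged exon length in kilobases (horizontal axis). Mouse 4 runs from 0.23 in genes of up to 1000 bases to -0.21 in genes of over 8000 bases, and mouse 5 runs the other way, from -0.16 to 0.14.

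Gene length moved with mouse. As the plot of level by gene length shows, mouse 4 had a median log2 difference of 0.23 from the other mice in the 1189 genes with up to 1000 bases of exon and of -0.21 in the 802 genes with more than 8000 bases. Mouse 3 was higher than the others in the shortest group (0.21) and close to them in the longest (-0.01). Mice 1, 2 and 5 were lower in the shortest group, by -0.13, -0.10 and -0.16. The part of gene length in the differences given below was not tested.

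Transcripts of the gate markers Sca1 and Kit, and of Cd34, which is not named in the gate, were present in all 5 mice. Kit, the receptor for stem cell factor (chr5:75574916-75656722, GRCm38, plus strand), was at 435, 385, 247, 282 and 521 CPM in mice 1 to 5. Mouse 5 was highest and mouse 3 lowest, and the SD of log2 CPM was 0.44. Ly6a, which encodes the Sca1 antigen (chr15:74994878-74997634, minus strand), was at 23.9, 14.5, 39.5, 49.1 and 38.5 CPM, lowest in mouse 2 and highest in mouse 4, with an SD of 0.70. Cd34, a sialomucin of stem and progenitor cells (chr1:194938821-194961292, plus strand), was at 661, 639, 678, 542 and 561 CPM and varied least of the 3, with an SD of 0.14. Per kilobase of exon, Cd34 ranked 287, Kit 973 and Ly6a 2464 among 13361 genes.

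Surface markers that subdivide the LSK fraction were all detected, 10 of 12 above a mean of 10 CPM. Flt3, the receptor that marks lymphoid-primed multipotent progenitors, was at 492, 495, 463, 346 and 244 CPM, lowest in mouse 5. Slamf1, which encodes the CD150 antigen of long-term stem cells, was at 7.22, 4.75, 5.34, 4.05 and 9.05 CPM, highest in mouse 5. Per kilobase, Flt3 (rank 586) and Cd48 (rank 996) stood far above Slamf1 (rank 10336). Procr, the endothelial protein C receptor of stem cells, was at 19.0, 12.1, 11.5, 10.4 and 19.3 CPM, with mice 1 and 5 above the others. Of the 12 surface markers, 7 were highest in mouse 5, and their median SD was 0.42 against 0.27 over all 13539 genes tested.

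The transcription factors that maintain stem and progenitor cells had a mean over the mice above 10 CPM for 15 of 15 genes. Per kilobase, Lmo2, an adaptor of the haematopoietic factor complex, ranked 270, and Myb, a factor of progenitor proliferation, ranked 490. Lyl1, a partner of Lmo2, ranked 572. Hlf, a factor of stem cell identity, was at 200, 166, 100, 95.4 and 173 CPM, lower in mice 3 and 4. Gfi1b, a repressor that acts in megakaryocyte and erythroid progenitors, varied most among the 15, at 33.3, 22.1, 2.93, 8.34 and 30.9 CPM. Mice 3 and 4 were lowest for Gfi1b and also for Kmt2a, a histone methyltransferase with a long transcript, at 324, 300, 146, 178 and 353 CPM. Mycn, a growth-promoting factor of stem cells, went the other way, at 22.1, 16.1, 77.5, 30.9 and 44.5 CPM, with mouse 3 highest.

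Genes of protein synthesis led the expression rank. Eef1a1, the factor that brings aminoacyl-tRNA to the ribosome, had the highest length-scaled level, with counts per kilobase rescaled to a fixed total, at 14530 ± 1666.5 (SD, n = 5). In CPM it stood at 13559, 12293, 13628, 11127 and 10744 in mice 1 to 5, which is 1.10% to 1.40% of the counts of a library. The mitochondrial genes mt-Co1, mt-Co2, mt-Atp6, mt-Co3 and mt-Cytb, which encode subunits of the respiratory chain and ATP synthase, ranked 2, 3, 4, 5 and 8. The other nuclear genes of high level included Rplp1, Ptma, Rplp0, Rps2, Rps18, Rpl31-ps8, Hist1h2ap, Gm9800, Hsp90ab1, Rps3a, Rps4x, Rpl13 and Gm10123. Rpl31-ps8 is a ribosomal protein pseudogene and Gm9800 is annotated as a processed pseudogene, so their values are uncertain where reads are divided between near-identical copies. Of the highest 50 genes, 23 encoded ribosomal proteins, 8 lay on the mitochondrial genome, 7 were ribosomal protein pseudogenes and 4 were translation factors. Genes with a known role in blood cells or stimulus response that ranked high included Fos (rank 54), Mpo (rank 84), Ighm (rank 85), Jun (rank 127) and Prtn3 (rank 130), named here after their values were seen. Hist1h2ap, a core histone, was at 705, 911, 1069, 1107 and 713 CPM, and as histone transcripts mostly lack a poly(A) tail, its level after poly(A) selection is not that of the whole transcript pool.

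The order depended on the use of gene length. Only 26 of the 50 genes with the highest level per kilobase were among the highest 50 in CPM. Leaving out any 1 mouse kept 48 to 50 of the 50.

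**Figure D2:**
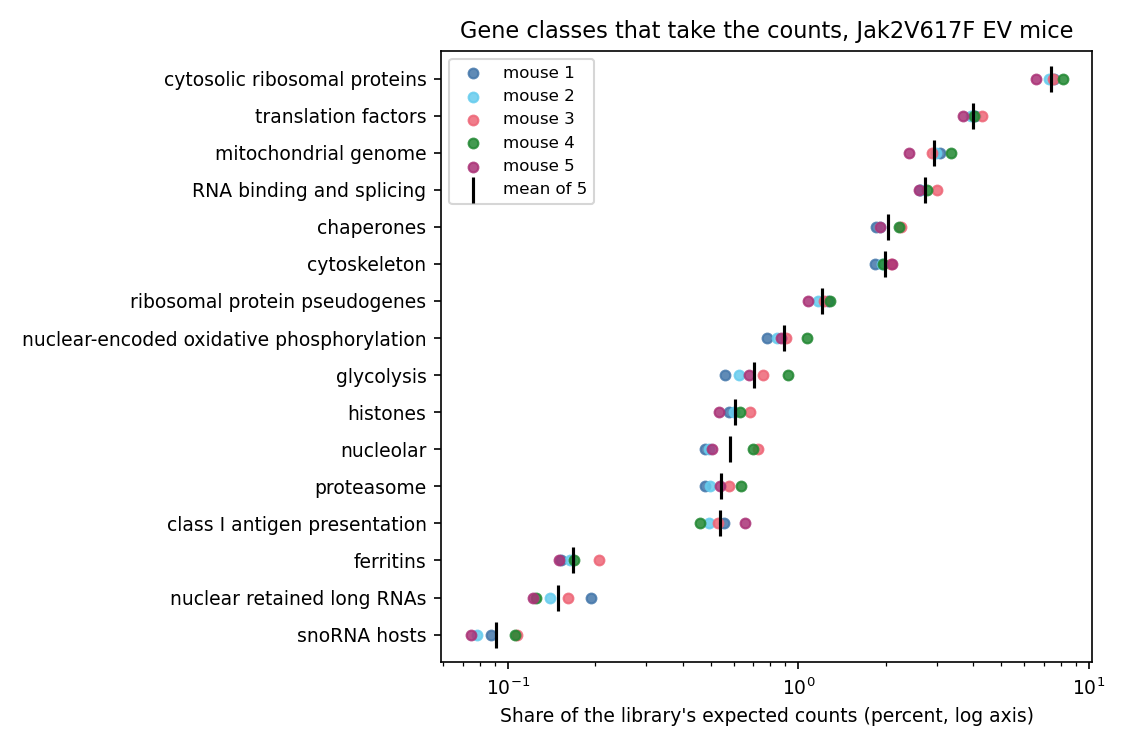
Share of each library's expected counts (percent, log axis) taken by 16 gene classes in the 5 Jak2V617F EV mice, with 1 point per mouse and a bar at the mean. Ribosomal protein genes took 6.58% to 8.14%, and mouse 4 is highest in the mitochondrial, oxidative phosphorylation, glycolysis and proteasome classes.

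The counts were spread over many genes. The highest 10 genes of a library took 4.62% to 5.23% of its counts, the highest 100 took 16.4% to 19.1%, and the highest 1000 took 48.0% to 53.1%. Protein-coding genes held 96.3% ± 0.264 (SD, n = 5) and pseudogenes 2.31% ± 0.138. Together, 16 gene classes defined by symbol took 26.6% ± 1.65 of the counts, from 24.5% in mouse 5 to 28.6% in mouse 4.

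Genes for cytosolic ribosomal proteins took the largest share of these classes, 7.58%, 7.31%, 7.51%, 8.14% and 6.58% in mice 1 to 5. Translation factors followed with 3.69% in mouse 5 to 4.30% in mouse 3 and the mitochondrial genome with 2.94% ± 0.348, from 2.41% in mouse 5 to 3.36% in mouse 4. RNA-binding and splicing factors took 2.72% ± 0.169, chaperones 2.03% ± 0.192 and cytoskeletal genes 1.98% ± 0.112. Mouse 5 was lowest and mouse 4 highest for ribosomal proteins, the mitochondrial genome and ribosomal protein pseudogenes.

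Glycolysis genes varied more in proportion, at 0.557%, 0.622%, 0.757%, 0.921% and 0.675%, with mouse 4 highest and mouse 1 lowest. Nucleolar genes such as Ncl and Npm1, which act in ribosome assembly, took 0.725% and 0.697% in mice 3 and 4. They took 0.478% to 0.505% in mice 1, 2 and 5, a grouping made from these same values. Wilson 95% intervals of the shares were at most 0.0178 percentage points wide and cover counting error only. Mice 3 and 4 were also the mice with higher levels in the shortest genes, and the part of length in these shares was not tested. Scaled per kilobase of exon, the 16 classes together took 41.7% and the ribosomal proteins 15.3%.

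**Figure D3:**
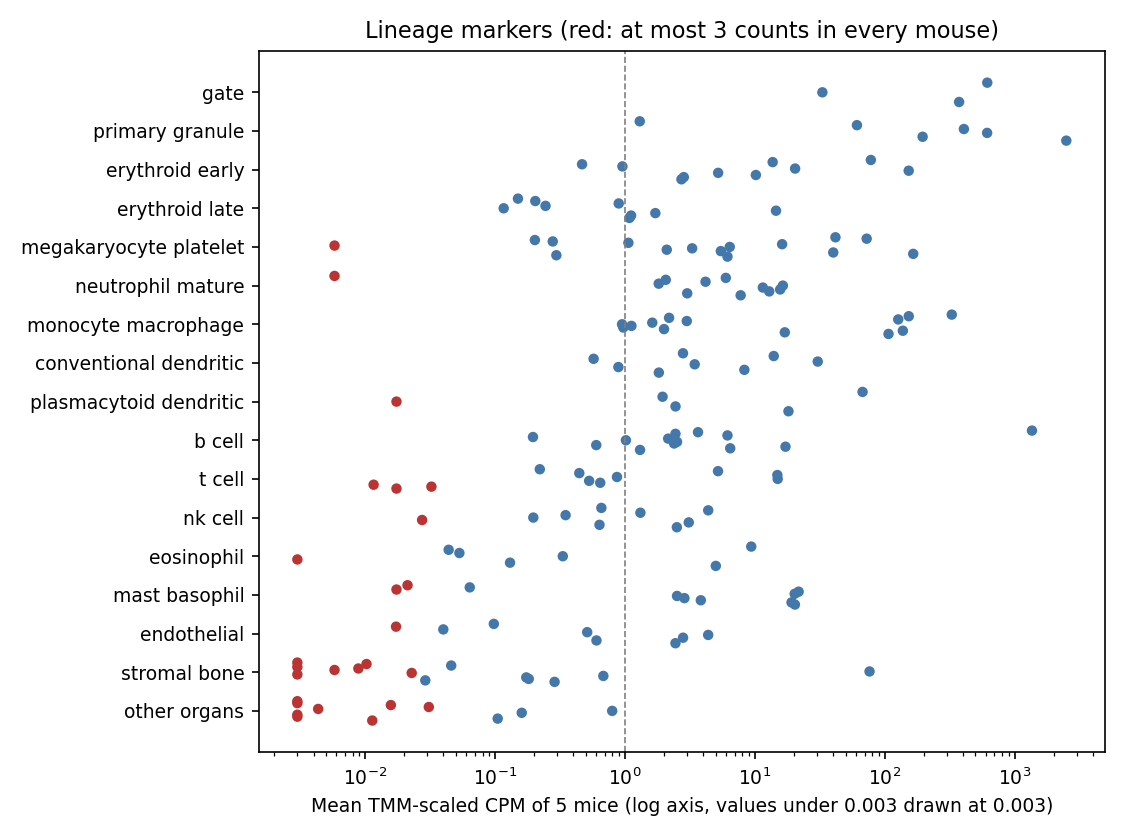
Mean TMM-scaled CPM over the 5 Jak2V617F EV mice (log axis, values under 0.003 drawn at 0.003) of the genes in each marker list, with 1 point per gene and a dashed line at 1 CPM. Red points had at most 3 counts in every mouse; they make up 7 of 14 stromal and bone genes and 8 of 11 genes of other organs.

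Markers of other organs and of stroma and bone were mostly at or near the floor, while those of blood lineages ranged widely. Of 160 lineage marker genes found in the table, 26 were at the floor, 8 of them with 0 counts in every library, and 54, these included, were under 1 CPM in every library. By contrast 61 were at 1 CPM or more in every mouse, and 48 reached 10 CPM in some mouse. Genes of other organs, such as Ttr of liver and brain, Ins2 of pancreatic beta cells and Snap25 of neurons, were at the floor for 8 of 11. Stromal and bone genes were at the floor for 7 of 14, Col3a1, Ibsp and Acan with 0 counts throughout. The exception in that list was Pdgfrb, a receptor tyrosine kinase of pericytes and fibroblasts, at 68.9, 73.9, 100.5, 76.5 and 62.4 CPM, while Pdgfra was at the floor. The upper limit that 3 counts allow applies to RNA in the sorted pool, and fewer cells of a type cannot be told apart from less RNA per cell.

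T-cell receptor complex genes Cd3e, Cd3d and Cd3g were at the floor, with at most 3 counts in any library. Lck and Lat, signalling genes of T cells, were at 17.98, 20.3, 9.21, 10.2 and 17.3 CPM and at 14.6, 13.8, 11.6, 11.04 and 23.5 CPM in mice 1 to 5. Ly6g, the neutrophil antigen, and Gp6, the platelet collagen receptor, were at the floor, as were Ear1 of eosinophils, Klk1 of plasmacytoid dendritic cells and Lyve1 of lymphatic endothelium. Of the 10 antigens commonly used in lineage depletion, 2 were at the floor and 4 had a mean under 1 CPM. The antibodies of the depletion mix are not given in the labels. Itgam, the CD11b integrin, had 17.2 to 35.9 CPM and Il7r, the interleukin 7 receptor of lymphoid progenitors, 21.8, 14.0, 6.62, 4.45 and 10.8 CPM, so both stood above 1 CPM in every mouse.

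Among red cell genes, Hbb-bt, an adult beta-globin gene, was at 16.7, 13.3, 14.4, 20.4 and 8.02 CPM, lowest in mouse 5. Its near-identical neighbour Hbb-bs was at 0.801, 0.606, 0.705, 0.416 and 6.04 CPM, highest in mouse 5. Reads of the 2 copies can be divided between them by the counting, so their opposite order is uncertain. Alas2, the haem synthesis enzyme of erythroblasts, was at most at 0.173 CPM.

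Early granulocyte genes were the strongest lineage programme. Mpo, the myeloperoxidase of primary granules, was at 2459, 2721, 2694, 2047 and 2592 CPM, with an SD of 0.17 on the log2 scale. Elane, neutrophil elastase, was at 206, 213, 213, 125 and 222 CPM, with mouse 4 alone below the rest. Ms4a3, a membrane gene of granulocyte-monocyte progenitors, was at 34.9, 39.1, 51.2, 148 and 32.0 CPM, with mouse 4 alone above. Elane and Ms4a3, both of the same list, therefore departed in opposite directions in mouse 4. Per kilobase, Mpo ranked 84, Prtn3 130, Ctsg 183 and Elane 329.

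Genes of later neutrophil stages were low and uneven. S100a9, a calcium-binding alarmin of neutrophils, was at 5.66, 2.19, 13.7, 11.3 and 49.4 CPM. Ltf, the lactoferrin of secondary granules, was at 2.80, 0.0217, 6.18, 0.0885 and 29.8 CPM, and Ngp, another secondary granule gene, at 4.22, 0.0651, 17.2, 0.111 and 42.9 CPM. Mouse 5 was highest for all 3, and mice 2 and 4 were lowest for Ltf and Ngp. Of the 5 genes of this list that were tested, which do not include Ltf and Ngp, mouse 4 was highest for 3 and mouse 5 for 2. Lcn2, lipocalin 2, was highest in mouse 4, at 4.59, 4.23, 11.6, 44.2 and 13.7 CPM.

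Mouse 4 was lowest for 4 of 4 plasmacytoid dendritic, 3 of 6 conventional dendritic and 4 of 11 monocyte genes tested. The other monocyte genes were lowest in mice 1, 2 and 5, with 2 genes each, and in mouse 3, with 1. Csf1r, the receptor for macrophage colony-stimulating factor, was at 129, 134, 121, 53.0 and 97.6 CPM. Ly6c2, a monocyte antigen, was at 169, 198, 212, 42.1 and 144 CPM. Siglech, a lectin of plasmacytoid dendritic cells, was at 23.6, 23.3, 24.3, 3.08 and 16.5 CPM, and Itgax, the CD11c integrin, at 38.2, 38.8, 36.0, 8.63 and 31.0 CPM. Mouse 4 lay below every other mouse in Csf1r, Ly6c2, Siglech and Itgax. Other monocyte list genes did not follow this, such as Cd14 at 5.75, 9.37, 47.1, 17.2 and 5.63 CPM, lowest in mouse 5. Vcam1, of the same list, was at 2.26, 0.890, 2.15, 1.15 and 8.50 CPM, lowest in mouse 2. Mast cell and basophil genes were highest in mouse 4 for 4 of 6 tested and in mouse 5 for the other 2, for example Prss34, a basophil protease, at 12.2, 8.01, 3.84, 26.7 and 50.6 CPM. Without mouse 4, the median SD of the plasmacytoid list was 0.33 against 0.69 with it, and that of the conventional dendritic list 0.39 against 0.70. Genes were filtered anew wherever a mouse was left out, here and below, so the genes behind such medians can differ.

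Of 19 JAK-STAT genes, 17 had a mean over the mice above 10 CPM. Jak2 itself (chr19:29251828-29313080, plus strand) was at 73.0, 76.3, 87.7, 54.5 and 71.8 CPM, highest in mouse 3 and lowest in mouse 4. Gene counts do not separate the mutant from the normal allele. Per kilobase the kinases ranked Jak3 1102, Jak1 1616, Jak2 5095 and Tyk2 5679, and the transducers Stat5a 2256, Stat3 2335 and Stat5b 2368. Zrsr2, the gene targeted in the other group (chrX:163935443-163958661, minus strand), was at 49.7, 51.0, 62.3, 51.5 and 50.6 CPM here.

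Of the 19 genes, 5 had an unadjusted p under 0.05 in edgeR's test of spread, described further on, against 4.62% of all genes. The genes named next were picked with their values in view. Socs3, an inhibitor induced by STAT3, was at 58.1, 80.7, 367, 216 and 34.4 CPM, high in mice 3 and 4. Pim1, a survival kinase induced by STATs, was at 312, 374, 771, 493 and 281 CPM. Cish, an inhibitor induced by STAT5, was at 7.02, 8.33, 36.1, 9.10 and 18.4 CPM. Osm, a cytokine gene induced by STAT5, was at 27.4, 34.8, 90.6, 40.1 and 43.1 CPM, and Stat3 at 170, 169, 348, 215 and 183 CPM. Mouse 3 was highest for each of these 5 genes and for 11 of the 19 in the list, and it was lowest for 4 of the 19. Over 12014 genes, mouse 3 lay more than 1 log2 unit above the mean of the other mice for 354 and below it for 835. The share of all genes highest in mouse 3 is not given here, so 11 of 19 cannot be set against it. The median SD of the list was 0.44, and 0.29 without mouse 3.

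Of the cytokine receptors, Csf2rb, the shared beta chain of the GM-CSF and IL-3 receptors, was at 134, 136, 383, 328 and 106 CPM. Its neighbouring paralogue Csf2rb2, the chain specific to IL-3, was at 44.2, 39.1, 145, 86.5 and 29.3 CPM. Mice 3 and 4 were the highest in both genes, although reads of similar sequence could be divided between the genes. Epor, the erythropoietin receptor, was at 1.36, 1.30, 1.31, 2.50 and 7.71 CPM, with mouse 5 alone above the rest.

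No gene passed the test for a spread between the 5 mice larger than the trend for its level. The test was edgeR's quasi-likelihood dispersion of each gene against the trend, with Benjamini-Hochberg adjustment over 13539 genes. It called 0 genes (0%) at an adjusted p under 0.05, the smallest adjusted p being 0.761, and 626 genes (4.62%) at an unadjusted p under 0.05. DESeq2 marked 84 genes as dispersion outliers on the same genes, limma-trend called 0, and edgeR without a filter on low counts called 85. The common biological coefficient of variation was 0.264. Of the 84 DESeq2 outliers, 51 were among the 100 genes with the largest SD. The edgeR test had little power, with 4 residual degrees of freedom per gene and 4.17 for the trend, which was fitted to these same genes. In it AC160982.1, an immunoglobulin gene at 0.376 to 3070.5 CPM, had an unadjusted p of 5.6e-05 and an adjusted p of 0.761. The 0 calls therefore do not show that no gene varied beyond the trend. The genes below are described by their values, since none was called by the edgeR test.

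Most genes differed little. The median SD of log2 CPM was 0.25 over the 12014 tested genes averaging 2 CPM or more, and 247 of these (2.06%) had an SD over 1. Without mouse 3 the median over all genes tested dropped from 0.27 to 0.21. The smallest SD among genes of at least 50 CPM belonged to Was, the actin regulator mutated in Wiskott-Aldrich syndrome, at 116, 116, 116, 114 and 115 CPM. Abca7, Sav1, Rab8a and Camk2g followed, all with an SD of at most 0.03. Replication genes, which include the Mcm helicase subunits and Pcna, had a median SD of 0.16 and 0 of 15 with an unadjusted p under 0.05, and mitosis genes had 0.25 and 2 of 15, where 4.62% of all genes had such a p. Among mitosis genes 11 of 15 were lowest in mouse 3, for example Plk1, a mitotic kinase, at 57.7, 72.2, 25.4, 55.0 and 69.2 CPM. Without mouse 3 the median SD of mitosis genes was 0.14. Mouse 3 also lay more than 1 log2 unit below the mean of the other mice for 835 of the 12014 genes.

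**Figure D4:**
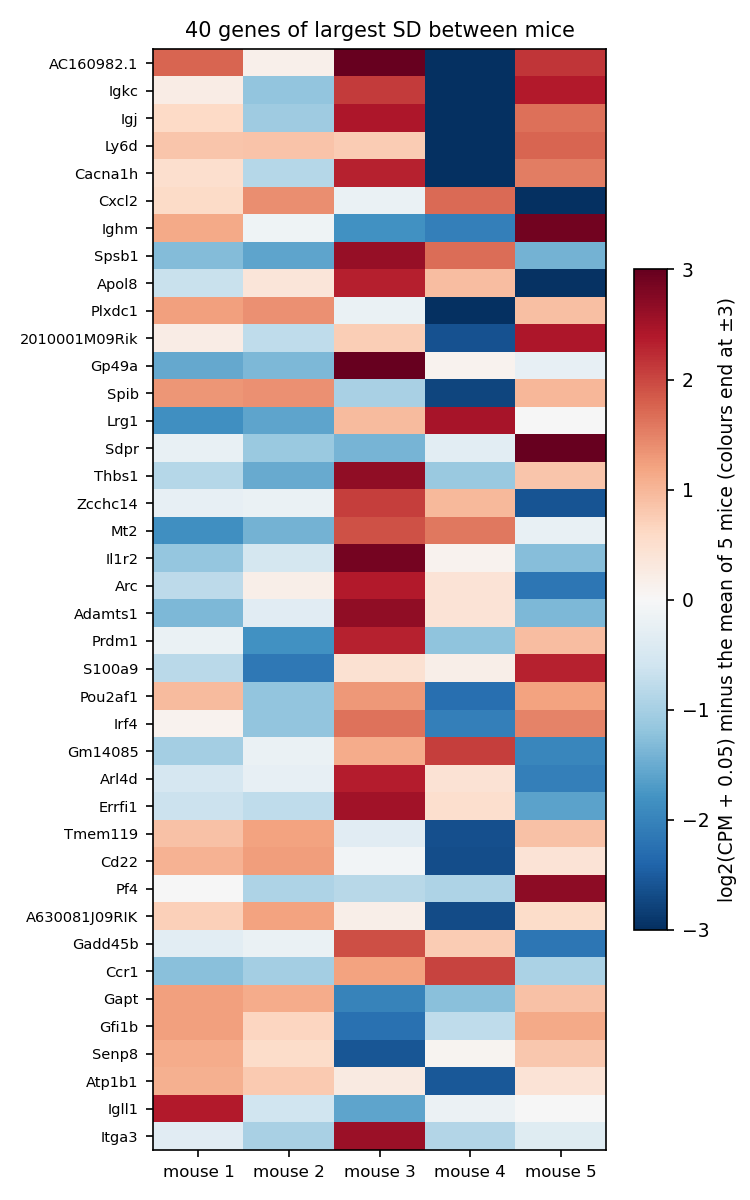
Heat map of the 40 tested genes with the largest SD of log2 CPM between the 5 Jak2V617F EV mice. Genes averaged 2 CPM or more, and colour is log2(CPM + 0.05) minus the mean of the 5 mice, ending at ±3. Immunoglobulin genes at the top are low in mouse 4, a block of genes is high in mouse 3, and Sdpr and Pf4 are high in mouse 5.

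The 20 genes with the largest SD were AC160982.1, Igkc, Igj, Ly6d, Cacna1h, Cxcl2, Ighm, Spsb1, Apol8, Plxdc1, 2010001M09Rik, Gp49a, Spib, Lrg1, Sdpr, Thbs1, Zcchc14, Mt2, Il1r2 and Arc. The current symbols of AC160982.1, Igj and 2010001M09Rik are Igha, Jchain and Mzb1. This ranking holds only tested genes averaging 2 CPM or more. Genes with too few counts in some mouse, such as Ltf, Ngp and Car1, could not enter it, whatever their spread. Of the 100 genes with the largest SD, 37 were highest in mouse 3 and 24 in mouse 5, and 34 were lowest in mouse 4. Leaving out mouse 3 kept 58 of the 100, leaving out mouse 4 kept 63 and leaving out mouse 5 kept 67.

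Immunoglobulin transcripts varied most. AC160982.1, the constant region of IgA, was at 489, 163, 3070.5, 0.376 and 642 CPM, an SD of 4.94 on the log2 scale, with mouse 3 highest and mouse 4 near 0. Ighm, the constant region of IgM, followed another order, at 1355, 563, 174, 149 and 4566 CPM, with mouse 5 highest and mice 3 and 4 lowest. Igkc, the kappa constant region, was at 179, 67.8, 659, 13.4 and 802 CPM. All immunoglobulin genes together took 2419, 1007, 6135, 183 and 7903 CPM, so that mouse 5 had the most and mouse 4 the least.

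The variable segments differed between mice in identity as well as in amount. Of 317 variable-segment genes in the table, 115 had more than 10 counts in some mouse, 62 in 1 mouse alone and 0 in all 5. Variable-segment counts ran from 846 in mouse 4 to 53785 in mouse 5. The number of mice past a fixed cut therefore depends on amount and does not by itself separate identity from it. In mouse 3, AC140374.3, whose current symbol is Igkv14-111, took 642 CPM, which was 55.6% of the variable-segment total of 1154.5 CPM, and the highest 3 segments took 91.3%. In mouse 5, Igkv1-88 took 594 of 1560 CPM (38.1%) while no other mouse exceeded 0.130 CPM for it, and 98 segments had more than 10 counts. Mouse 1 had 40 such segments with no more than 12.2% in the leading segment, mouse 2 had 28, mouse 3 had 16 and mouse 4 had 2. The IgG constant genes Ighg2c and Ighg2b were at 588 and 478 CPM in mouse 3, and at 57.1 and 121 CPM in mouse 5.

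Some genes known from antibody-secreting plasma cells were also high in mice 3 and 5. Jchain, which joins IgA and IgM units, was at 185, 58.0, 660, 10.03 and 382 CPM. Prdm1, the factor that directs plasma cell differentiation, was at 2.04, 0.629, 11.7, 0.996 and 4.47 CPM, and Irf4, which acts with it, at 6.62, 2.65, 19.2, 1.44 and 17.4 CPM. Mice 3 and 5 were the highest for all 3 genes and mice 2 and 4 the lowest. Of a list of 12 plasma cell genes chosen after these values were seen, 11 were tested, of which 5 were highest in mouse 5, 4 in mouse 3 and 2 in mouse 4, and 7 were lowest in mouse 4. As the list was chosen for these values, the counts are a description only. Xbp1, the secretory stress factor of plasma cells, which other cells also use, was at 133, 123, 118, 160 and 137 CPM and showed no such order. The part of plasma cells in the sorted pools was not tested.

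Some precursor B-cell genes were highest in mouse 1, which was highest for 3 of 6 B-cell list genes tested, mice 2, 3 and 5 being highest for 1 each. Ebf1, the factor that commits cells to the B lineage, was at 9.10, 0.325, 0.281, 1.06 and 1.19 CPM. Igll1, a surrogate light chain gene, was at 7.05, 0.846, 0.406, 1.15 and 1.30 CPM. Rag1, a recombinase of lymphoid progenitors, was at 17.5, 5.21, 0, 1.55 and 6.55 CPM. Mouse 1 was highest for each of these genes. The median SD of the 6 genes tested, which do not include Ebf1 and Rag1, was 1.34. Without mouse 1 the list's median SD was 0.86, over genes filtered anew in the other mice. That set can hold genes left out of the 6, so the medians are not of the same genes.

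**Figure D5:**
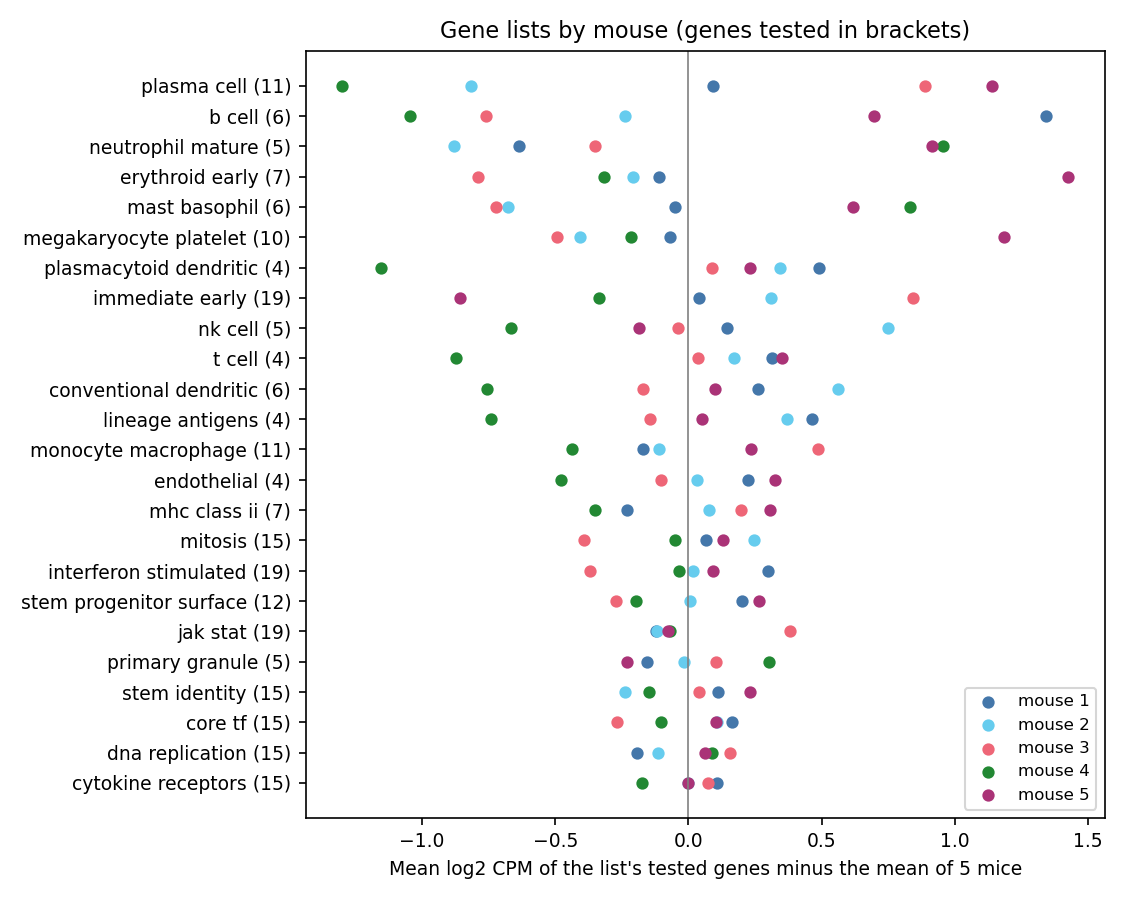
Mean log2 CPM of the tested genes of each list in each Jak2V617F EV mouse, minus the mean of the 5 mice (horizontal axis), with the number of genes tested in brackets and lists in the order of their spread. Mouse 5 is the highest point for the megakaryocyte and early erythroid lists and the lowest for the immediate-early list, where mouse 3 is highest.

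Immediate-early genes, transcribed within minutes of a stimulus without new protein synthesis, were abundant and varied together. Per kilobase the median rank of the 19 genes was 422 of 13361. Fos was at 2489, 2987, 3003, 1554 and 1137 CPM and Jun, its partner in the AP-1 factor, at 2167, 2076, 3070, 1193 and 1170 CPM. Atf3, a stress-induced factor, was at 57.3, 105, 265, 87.1 and 19.3 CPM. Mouse 3 was highest for 17 of 19 genes and mouse 5 lowest for 14, the other 5 being lowest in mouse 4. Nr4a1, a nuclear receptor of the same class, departed from this, at 290, 370, 643, 167 and 590 CPM, with mouse 5 high. Over 12014 genes, mouse 3 lay more than 1 log2 unit above the mean of the other mice for 354. At an unadjusted p under 0.05, 15 of the 19 genes were more variable than the trend, against 4.62% of all genes, and the list's median SD was 0.76 against 0.27 over all genes. Without mouse 3 the median SD was 0.53 and without mouse 5 it was 0.54.

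The promoters of Dusp1 and Zfp36 are shown because these genes followed the order of the list and hold known stimulus-response motifs. Dusp1, a phosphatase that switches off MAP kinases, was at 550, 680, 688, 450 and 291 CPM, and Zfp36, which binds AU-rich messenger RNA for decay, at 1183, 1333, 1680, 717 and 630 CPM. The sequences are the 250 bases before the RefSeq start (GRCm38.p6, minus strand, chr17:26508473-26508722 for Dusp1 and chr7:28379229-28379478 for Zfp36). Capitals mark the cyclic AMP response element TGACGTCA in Dusp1 and the CArG box, the serum response factor motif, in Zfp36.
Dusp1: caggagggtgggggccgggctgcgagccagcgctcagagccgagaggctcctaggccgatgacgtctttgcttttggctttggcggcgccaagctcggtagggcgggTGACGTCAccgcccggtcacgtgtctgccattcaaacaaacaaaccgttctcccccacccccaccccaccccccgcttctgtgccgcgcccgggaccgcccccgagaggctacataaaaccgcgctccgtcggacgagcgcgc
Zfp36: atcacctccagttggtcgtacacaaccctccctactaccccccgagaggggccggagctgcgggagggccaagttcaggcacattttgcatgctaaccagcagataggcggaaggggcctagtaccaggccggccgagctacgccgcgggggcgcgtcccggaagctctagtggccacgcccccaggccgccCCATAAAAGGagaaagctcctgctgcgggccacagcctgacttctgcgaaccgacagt
Both strands were searched, and 7 motifs were searched in all: the octamer ATGCAAAT, the cyclic AMP element just named, the AP-1 motif TGANTCA, the GATA and interferon motifs spelled out further on, the CArG box and the NF-kB motif. TGACGTCA was in the windows of Btg2 and Dusp1, 2 of the 16 immediate-early genes with a window. Over all genes it was in 478 of 27025, and in 1.55% of all 32851 windows. The CArG box was in the windows of Egr2 and Zfp36, 2 of 16 genes, against 439 of 27025 genes and 1.47% of all windows. The NF-kB motif was in more of the list, Egr2, Fos, Fosb and Ier3, 4 of 16, against 2225 of 27025. The octamer and the GATA motif were each in 1 of 16, and the AP-1 and interferon motifs in 0.

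Megakaryocyte and erythroid genes were highest in mouse 5. Pf4, platelet factor 4, was at 3.37, 1.78, 1.90, 1.77 and 21.95 CPM. Vwf, von Willebrand factor, was at 9.06, 6.68, 4.65, 7.66 and 53.0 CPM, and Gp5, a platelet glycoprotein, at 4.81, 4.04, 1.09, 4.21 and 17.9 CPM. Mouse 5 was the highest for 8 of 10 megakaryocyte genes tested, including all 3 named here. Itga2b, the CD41 integrin, was instead highest in mouse 4, at 113, 107, 150, 262 and 198 CPM.

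On the erythroid side, Gata1, the master factor of both lineages, was at 8.32, 6.70, 2.31, 9.54 and 24.04 CPM. Klf1, the factor that drives erythroid genes, was at 1.25, 1.71, 0.780, 1.08 and 8.79 CPM, and Aqp1, a water channel of red cells, at 8.35, 6.60, 5.27, 5.16 and 43.2 CPM. Car1, carbonic anhydrase 1, was at 25.3 CPM in mouse 5 and at 0.0283 to 0.421 CPM in mice 1 to 4. All 7 early erythroid genes tested were highest in mouse 5, and 5 of them had an unadjusted p under 0.05, against 4.62% of all genes. The median SD of this list was 1.09, and 0.43 without mouse 5. That of the megakaryocyte list was 0.55, and 0.41 without mouse 5. Summed levels of the late erythroid list ran from 15.2 to 28.4 CPM, highest in mouse 5, and the part of maturing cells in these values was not tested.

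The promoters of Gp5 and Epor, both highest in mouse 5, hold the GATA motif AGATAA, here on the other strand and so read as TTATCT, marked in capitals. The windows are chr16:30310782-30311031 for Gp5 and chr9:21963577-21963826 for Epor (GRCm38.p6, RefSeq, minus strand). The matches of Gp5 begin 93 and 77 bases before the start and that of Epor 54 bases before it.
Gp5: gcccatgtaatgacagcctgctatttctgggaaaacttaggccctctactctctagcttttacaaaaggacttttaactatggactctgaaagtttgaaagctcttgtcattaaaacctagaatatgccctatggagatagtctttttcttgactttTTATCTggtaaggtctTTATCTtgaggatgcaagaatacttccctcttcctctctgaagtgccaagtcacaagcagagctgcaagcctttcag
Epor: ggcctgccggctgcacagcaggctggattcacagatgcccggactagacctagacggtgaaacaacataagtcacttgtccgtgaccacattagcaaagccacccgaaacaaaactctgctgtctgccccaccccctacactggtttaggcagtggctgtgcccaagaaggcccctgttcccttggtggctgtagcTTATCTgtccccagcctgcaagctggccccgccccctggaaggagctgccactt
The motif was in 2 of 11 megakaryocyte genes with a window, Gp5 and Gp6, and in 1 of 8 early erythroid genes. Over all genes it was in 3090 of 27025, and in 9.99% of all windows. The AP-1 motif was also in 2 of 11 megakaryocyte genes, against 2113 of 27025. The NF-kB motif was in 3 of 8 early erythroid genes, against 2225 of 27025. Gp6 was at the floor in these mice.

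Interferon-stimulated genes split into opposite orders. Ifitm1 and Ifitm3, membrane proteins that restrict virus entry, were at 107, 114, 288, 831 and 102 CPM and at 103, 104, 217, 314 and 131 CPM, with mice 4 and 3 highest. Ly6e, another membrane antigen of the list, was at 817, 831, 1180, 899 and 865 CPM, highest in mouse 3. Oasl2, an oligoadenylate synthetase-like gene, was at 31.4, 24.8, 8.74, 18.9 and 26.2 CPM, and Ifit1, which binds foreign RNA, at 3.68, 2.62, 0.374, 1.55 and 3.36 CPM, both lowest in mouse 3. Of the 19 genes, 10 were lowest in mouse 3 and 9 were highest in mouse 1. Over 12014 genes, mouse 3 lay more than 1 log2 unit below the mean of the other mice for 835. At an unadjusted p under 0.05, 4 of 19 were more variable than the trend, against 4.62% of all genes.

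The interferon-stimulated response element GAAANNGAAA was in the windows of 6 of 13 genes of this list, namely Ifit1, Ifit3, Ifitm2, Isg15, Oas1a and Rsad2. Over all genes it was in 936 of 27025, and in 2.98% of all windows. The AP-1 motif was in 4 of the 13, against 2113 of 27025, and the NF-kB motif in 2, against 2225 of 27025. The window of Ifit1 (chr19:34640639-34640888, plus strand, GRCm38.p6, RefSeq) is shown with its 2 matches in capitals, both on the other strand, because Ifit1 had the largest SD (1.29) among the genes with a match.
Ifit1: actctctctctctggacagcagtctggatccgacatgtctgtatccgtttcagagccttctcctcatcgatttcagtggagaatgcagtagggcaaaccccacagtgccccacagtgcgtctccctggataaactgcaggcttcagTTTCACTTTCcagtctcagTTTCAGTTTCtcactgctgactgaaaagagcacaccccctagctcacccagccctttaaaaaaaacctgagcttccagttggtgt

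Genes in which 1 mouse alone lay far from the others came mostly from mouse 3. A mouse was counted as alone where its gap to the nearest other mouse exceeded 0.71 of the range of the 5. Chance puts about 1 in 20 sets of 5 values past this cut, counting all mice and both directions. Of the 12014 genes, mouse 3 was alone high in 320 and alone low in 497, mouse 4 in 68 and 110, mouse 5 in 50 and 45, mouse 1 in 15 and 21 and mouse 2 in 4 and 3. These were 2.66% and 4.14% of the genes in mouse 3, 0.566% and 0.916% in mouse 4 and 0.416% and 0.375% in mouse 5. In mice 1 and 2 each share was at most 0.175%. Genes named next had the largest departures, and chance gaps among them cannot be told apart. The largest departures of mouse 3 were Itga3, an integrin, and the low genes Senp8 and Mettl8. Vegfa, the vascular growth factor, was at 36.9, 43.2, 212.5, 49.6 and 36.6 CPM. Mouse 4 was alone low for Ly6d, an antigen of lymphoid progenitors, at 17.6, 17.8, 16.7, 0.487 and 32.8 CPM, for A630081J09RIK and for Atp1b1. In mouse 5 the leading genes were Sdpr, Pf4 and Vwf, with Sdpr at 2.04, 1.06, 0.874, 1.90 and 19.9 CPM. In mouse 1 they were Cecr2, Gm15784 and Gm12856, and in mouse 2 Trem2, 0.82 above the mean of the other mice, was followed by Fdxacb1 (-0.32) and Ska3 (0.32).

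Some of the same genes varied between the sgZrsr2 mice, which share the Jak2 allele but no library with those described here. Of the 100 genes of largest SD in each group, 22 were in both lists, 22% of each, where each list is 0.832% of the 12014 genes ranked here. That share takes no account of level, and the median SD was 0.48 at 2 to 5 CPM against 0.20 at 50 to 100 CPM. No overlap expected for genes of like level is given. Ranked by the ratio of each gene's dispersion to the trend, the overlap was 29%. The median SD of the 100 genes was 1.40 in the 5 mice described here and 0.91 in the sgZrsr2 mice, in which 93 of them were measured, against 0.25 over all genes in either group. The shared genes included Cxcl2, Apol8, Spib, Sdpr, Il1r2, S100a9, Pf4, Gfi1b, Gp5, Vwf, Klf1 and Aqp1. Cxcl2, a neutrophil chemokine, was at 20.7, 36.2, 11.95, 44.9 and 1.19 CPM, and Apol8, an apolipoprotein L gene, at 2.77, 5.66, 22.7, 8.52 and 0.522 CPM, both lowest in mouse 5. Mouse 5 was the highest for 11 of the 22 shared genes, and without mouse 5 the overlap was 10%. In the sgZrsr2 group, several shared genes split mice 1 and 2 from mice 3 and 5. There Cxcl2 was at 40.9 and 35.6 against 0.818 and 0.904 CPM, and Vwf at 11.6 and 6.21 against 92.9 and 86.6 CPM. S100a9 did not split so, at 9.04, 2.66, 58.0 and 6.61 CPM. Library totals were 23238264 and 25857723 against 38368189 and 34422549. The part of this split in the overlap was not tested. The immunoglobulin genes AC160982.1, Igkc, Igj and Ighm were not among the shared genes. The SD of AC160982.1 was 4.94 here and 0.53 in the sgZrsr2 mice, and that of Igkc was 2.44 and 0.64. That of Igj was 2.40 and 0.80, and that of Ighm 2.07 and 1.15, all above the median of 0.25. Whether the spread differed between the groups was not tested.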

How the data were processed

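RNA from sorted LSK cells was sequenced from poly(A)-selected libraries made from 5 ng of total RNA, per the labels' protocols. The authors deposited expected counts per Ensembl gene, estimated with RSEM 1.2.30 after trimming with cutadapt 1.11 on GRCm38, per the submitters' processing notes. The aligner, annotation version and strandedness are not given in the sources used here, so antisense and overlapping genes cannot be told apart. Reads with several matching genes are shared out among them by RSEM.

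The expected counts of the 5 EV libraries were rounded and scaled with TMM factors (0.895 to 1.05; edgeR 4.0.16, limma 3.58.1, DESeq2 1.42.0, R 4.3.3). Genes were tested if filterByExpr kept them (minimum count 10, reached in all 5 libraries), which left 13539 genes with 99.8% of the counts. SDs are of log2 CPM with a prior count of 2. Where a mouse was left out, the filter was applied anew, so the genes behind a median SD can change. The test compared each gene's quasi-likelihood dispersion with the trend, one-sided, and was tested on simulated data. Depth was 32961362 to 45585531 counts. Levels per kilobase used merged exon lengths of GENCODE M21 (95.1% of identifiers matched), for 13361 ranked genes. Promoters are RefSeq windows on GRCm38.p6.

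The gene classes and 29 lists of 316 genes, written from general knowledge, were chosen with earlier results of these data known; the plasma cell list was added after the values were seen. Of all list entries, 1 was not found. Named by rule were the gate markers, Jak2, Zrsr2, the highest 15 nuclear and 5 mitochondrial genes, leading and floor members of each list, the 20 genes of largest and 5 of smallest SD, and up to 3 genes per mouse in which it stood alone. As edgeR called no gene, the rule was applied to genes ranked by SD. Genes outside this rule were picked with their values in view. Alternatives were other scalings, filters, tools, prior counts, list sizes and leaving out each mouse. Some genes that the rule names are not reported here.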

Additional observations from a re-analysis of the deposited data

Results flagged for a closer look

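In 31 of 122 sets of 5 values (list means and genes the text describes), the highest or lowest mouse lay farther from its nearest neighbour than Dixon's critical value of 0.71 of the range. Chance flags about 1 in 20 such sets, or 6.1 of 122, and genes of 1 list are not independent of each other. Many of the genes were picked with their values in view. Gaps of genes were taken on the CPM scale, those of lists on the log2 scale. On log2(CPM + 0.05), a scale tried after seeing the data, 10 of the 25 genes were still past the critical value, namely Zrsr2, Elane, Itgax, Pf4, Vwf, Aqp1, Hbb-bs, Ly6e, Vegfa and Sdpr, and the other 15 were not.

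Mouse 5 stood high in the mean log2 CPM of the megakaryocyte list (4.80, the others 3.12 to 3.54) and of the late erythroid list (2.81, the others 1.57 to 1.91). The latter rests on 2 tested genes, Hbb-bs and Hbb-bt, near-identical copies between which reads can be divided. Among single genes it stood high in Pf4 (21.95 CPM), Vwf (53.0 CPM), Gp5 (17.9 CPM), Klf1 (8.79 CPM), Aqp1 (43.2 CPM), Car1 (25.3 CPM), Hbb-bs (6.04 CPM), Epor (7.71 CPM) and Sdpr (19.9 CPM). It also stood high in Ighm (4566 CPM), S100a9 (49.4 CPM) and Ltf (29.8 CPM).

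Mouse 4 stood low in the mean log2 CPM of the plasmacytoid dendritic list (1.85, the others 3.10 to 3.50) and of the T-cell list (1.44, the others 2.35 to 2.66). It was low in Elane (125 CPM) and Itgax (8.63 CPM) and high in Ms4a3 (148 CPM), Ifitm1 (831 CPM) and Lcn2 (44.2 CPM).

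Mouse 3 stood high in the mean log2 CPM of the JAK-STAT list (6.36, the others 5.86 to 5.91). It was high in Stat3 (348 CPM), Osm (90.6 CPM), Vegfa (212.5 CPM), Ly6e (1180 CPM), AC160982.1 (3070.5 CPM) and Zrsr2 (62.3 CPM). Mouse 1 stood high in the B-lineage genes Ebf1 (9.10 CPM) and Igll1 (7.05 CPM). Mouse 2 stood low in the stromal and bone list mean (2.55, the others 2.90 to 3.04), which rests on 2 tested genes.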

How the results depend on the processing

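The count of genes more variable than the trend was 0 by edgeR's main setting, 85 without a filter on low counts and 84 as DESeq2 dispersion outliers; it was 0 under each other alternative, including leaving out any 1 mouse. The 16 classes took 26.6% of the counts, 24.4% over nuclear genes only and 41.7% per kilobase of gene length, and 26.1% to 27.1% with 1 mouse left out. Ranking by CPM without length kept 26 of the 50 highest genes, and leaving out a mouse kept 48 to 50. Of the lineage markers, 26 were at the floor of 3 counts, 8 at 0 counts and 54 under 1 CPM, and 26 to 32 with 1 mouse left out. The share of variable genes held in common with the sgZrsr2 mice was 22%, and 10% to 31% with 1 EV mouse left out, lowest without mouse 5 and highest without mouse 3. The median SD of the listed genes was 0.46, from 0.42 to 0.50 with 1 mouse left out. Leaving out sgZrsr2 mice 3 and 5, restricting genes by length and asking for the minimum count in 1 library were alternatives chosen after seeing the data. No paired analysis was possible because no groups are compared. The causes of these differences were not tested. At under 1 CPM the counting error alone gave a coefficient of variation of 19.2%, against 1.28% at 100 to 500 CPM, which limits what can be read from genes at low levels.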

Other observations

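The small non-coding RNAs 7SK and Scarna2 were lowest in mouse 5, as were the snRNA, snoRNA and misc_RNA gene classes. MicroRNA genes took only 1.05e-04% of the counts in mouse 1, the lowest, and 1.25e-04% in mouse 2. At such levels counting error is large and the order of the mice is uncertain. 7SK, the RNA that holds the elongation factor P-TEFb inactive, was at 22.2, 20.2, 23.8, 25.7 and 3.97 CPM in mice 1 to 5, and Scarna2, a small Cajal body RNA, was at 2.55, 2.10, 2.68, 2.86 and 0.522 CPM. Mitochondrial ribosomal RNA took 0.114%, 0.114%, 0.217%, 0.137% and 0.0562% of the counts, lowest in mouse 5 and highest in mouse 3. These values were looked at after the data were seen and were not tested. The libraries were poly(A)-selected, so levels of small RNAs may not be those of the whole RNA pool.

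Of the genes that were not tested because some library had too few counts, 87 reached 5 CPM in some mouse, and 66 of these were immunoglobulin genes. An entry named Hspa14, a symbol that the table gives to more than 1 gene, was listed at 11.4 CPM in mouse 2 and 8.98 CPM in mouse 4 and at 0 in mice 1, 3 and 5. An exact 0 beside such levels can come from the way the counting divides reads.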
